A study of Homo sapiens with 34 samples.

Results

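The globin genes are the 10 functional genes of the human alpha-globin and beta-globin clusters: HBZ, HBM, HBA2, HBA1 and HBQ1 on chromosome 16 and HBE1, HBG2, HBG1, HBD and HBB on chromosome 11. They were chosen by symbol from the 23185 gene symbols of the count table, each by 1 row. The cells were H1 human embryonic stem cells (ESCs), an established line, which carried a lentiviral shRNA vector, had passed puromycin selection and were driven toward cardiomyocytes with the Wnt activator CHIR99021 and then the Wnt inhibitor IWP2, with insulin added from day 7. The 4 lines were NKX2-5 shRNA, ZEB2 shRNA, ZNF503 shRNA and WT. WT here means H1 cells that received an empty vector or an shRNA directed at GFP. Each knockdown was 1 line, the most effective of 5 vectors for its gene, so the target and the line cannot be told apart. Total RNA was sequenced at days 0, 2, 6 and 10 of differentiation, and 2 libraries per line and day were used, 30 in all. At day 10 these were replicates 3 and 4 of WT and ZEB2 shRNA cells, and ZNF503 shRNA cells at day 10 were not analyzed here.

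Hemoglobin joins alpha-like and beta-like globin chains around heme, and the genes of each cluster lie in the order in which they are used during development. The first red cells, which form in the yolk sac, make the zeta chain (HBZ) and the epsilon chain (HBE1). Fetal red cells make the alpha chains (HBA1, HBA2) with the gamma chains (HBG1, HBG2), and adult red cells make alpha with beta (HBB) and a little delta (HBD). HBM and HBQ1 encode the mu and theta chains, which are minor alpha-like products.

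The alpha cluster lies on the plus strand of chromosome 16, where HBZ (chr16:202643-204502, GRCh37) is followed by HBM (chr16:215977-216763), HBA2 (chr16:222875-223709), HBA1 (chr16:226679-227521) and HBQ1 (chr16:230458-231178). The beta cluster lies on the minus strand of chromosome 11, so that transcription meets HBE1 first (chr11:5289575-5291175), then HBG2 (chr11:5274418-5276011), HBG1 (chr11:5269499-5271087), HBD (chr11:5254068-5255713) and HBB (chr11:5246694-5248301). Each of these protein-coding transcripts has 3 exons. The HBG1 and HBG2 transcripts are 99.1% identical and those of HBA1 and HBA2 96.5%, so the rows of each pair share reads and are uncertain singly. HBD and HBB are 85.7% identical.

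Promoter sequence was at hand for HBM and HBD among the 10 genes (RefSeq, GRCh38.p14). The 250 bases before each start are shown because the erythroid factors GATA1 and KLF1, described below, are known to bind GATA and CACCC elements. Capitals mark exact matches, on either strand, to the searched words, which were GATAA for GATA factors, CACCC for KLF factors, CCAAT for the box of that name, TATAAA for the TATA box and CATAAA for its variant; the windows are chr16:165728-165977 (plus strand) for HBM and chr11:5234484-5234733 (minus strand) for HBD.
HBM: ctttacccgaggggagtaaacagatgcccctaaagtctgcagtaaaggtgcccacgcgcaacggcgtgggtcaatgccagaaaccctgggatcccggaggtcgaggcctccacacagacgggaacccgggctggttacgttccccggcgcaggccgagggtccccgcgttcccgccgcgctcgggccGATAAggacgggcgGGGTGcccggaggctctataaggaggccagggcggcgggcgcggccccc
HBD: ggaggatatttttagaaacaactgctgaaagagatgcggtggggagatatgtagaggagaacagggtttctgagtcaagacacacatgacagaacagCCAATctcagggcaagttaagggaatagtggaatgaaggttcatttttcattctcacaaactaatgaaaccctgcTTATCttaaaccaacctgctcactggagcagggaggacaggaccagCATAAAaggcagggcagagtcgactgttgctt
The HBM window held GATAA at bases 63 to 59 before the start and CACCC on the opposite strand at bases 49 to 45. The HBD window held CCAAT at bases 153 to 149, GATAA on the opposite strand at bases 78 to 74 and CATAAA at bases 32 to 27. Of 35116 promoter windows of the same length, 20.4% held GATAA, 54.7% CACCC, 32% CCAAT, 10.7% TATAAA and 9.64% CATAAA, so these matches are a description and not binding sites.

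The libraries held 9189588 to 90798116 counts, and at day 10 they held 9189588 (WT replicate 4) to 29548573. Levels are in CPM, counts relative to the TMM-scaled library total. The upper limit for a gene without counts was set at 3 counts, equal to 0.033 to 0.0774 CPM in the day 0 libraries and 0.102 to 0.326 CPM in those of day 10; such limits and the intervals given below cover counting error only. NKX2-5 was at 0.668 to 3.12 CPM in the day 10 NKX2-5 shRNA libraries and at 106.5 to 168.1 CPM in WT. ZEB2 was at 54.95 to 54.96 CPM in the day 10 ZEB2 shRNA libraries and at 105.3 to 116.8 CPM in WT, and ZNF503 at day 6 was at 0.611 to 0.648 CPM in its line and at 8.71 to 9.34 CPM in WT. Pluripotency markers summed to 3981 to 4811 CPM in the day 0 libraries. Cardiomyocyte markers at day 10 summed to 7.03e+04 to 7.975e+04 CPM in WT, 1.371e+04 to 1.875e+04 in ZEB2 shRNA and 3232 to 4244 in NKX2-5 shRNA cells. The 2 WT libraries of day 10 stood apart from each other for the globins: the 10 genes summed to 99.3 CPM in replicate 3 and to 16.6 CPM in replicate 4, a 6.00-fold gap (HBE1 4.31-fold, HBG2 9.63-fold), so values are also given without each of them. The replicates are called biological in the study's text, which does not say whether they were separate cultures; the p-values measure the spread between these libraries, which may be technical.

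Globin transcripts rose late and mainly in 1 line. The 10 genes together made up 0.831 to 3.74 CPM in the undifferentiated cells and 0.36 to 3.88 CPM on day 2. At day 6 they reached 29.0 and 30.3 CPM in the NKX2-5 shRNA libraries, 13.1 and 12.7 CPM in ZEB2 shRNA, 4.64 and 9.48 CPM in WT and 3.36 and 4.42 CPM in ZNF503 shRNA cells. At day 10 they stood at 2055 and 2622 CPM in NKX2-5 shRNA cells, against 99.3 and 16.6 CPM in WT and 5.78 and 9.90 CPM in ZEB2 shRNA cells. The NKX2-5 shRNA values are 0.2055% and 0.2622% of the TMM-scaled library totals. The 3 lines did not overlap at day 10. In bulk RNA, fewer cells that make a transcript and less of it per cell cannot be told apart.

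**Figure D1:**
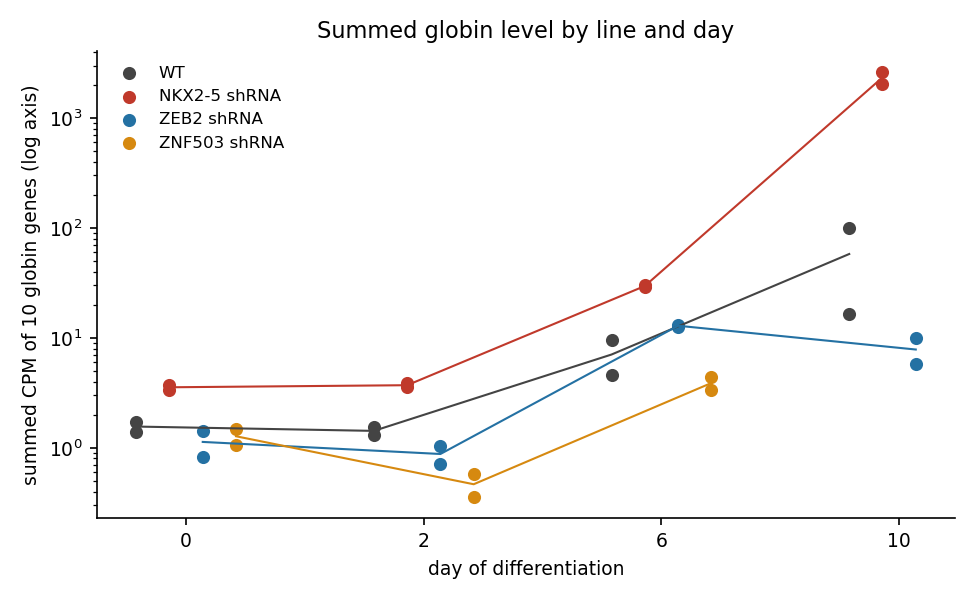
Summed CPM of the 10 globin genes (log axis) against the day of differentiation for the 4 lines; points are libraries and lines join the means of 2 libraries. The NKX2-5 shRNA libraries lie above all other libraries of the same day, and at day 10 they stand at 2055 and 2622 CPM.

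**Figure D2:**
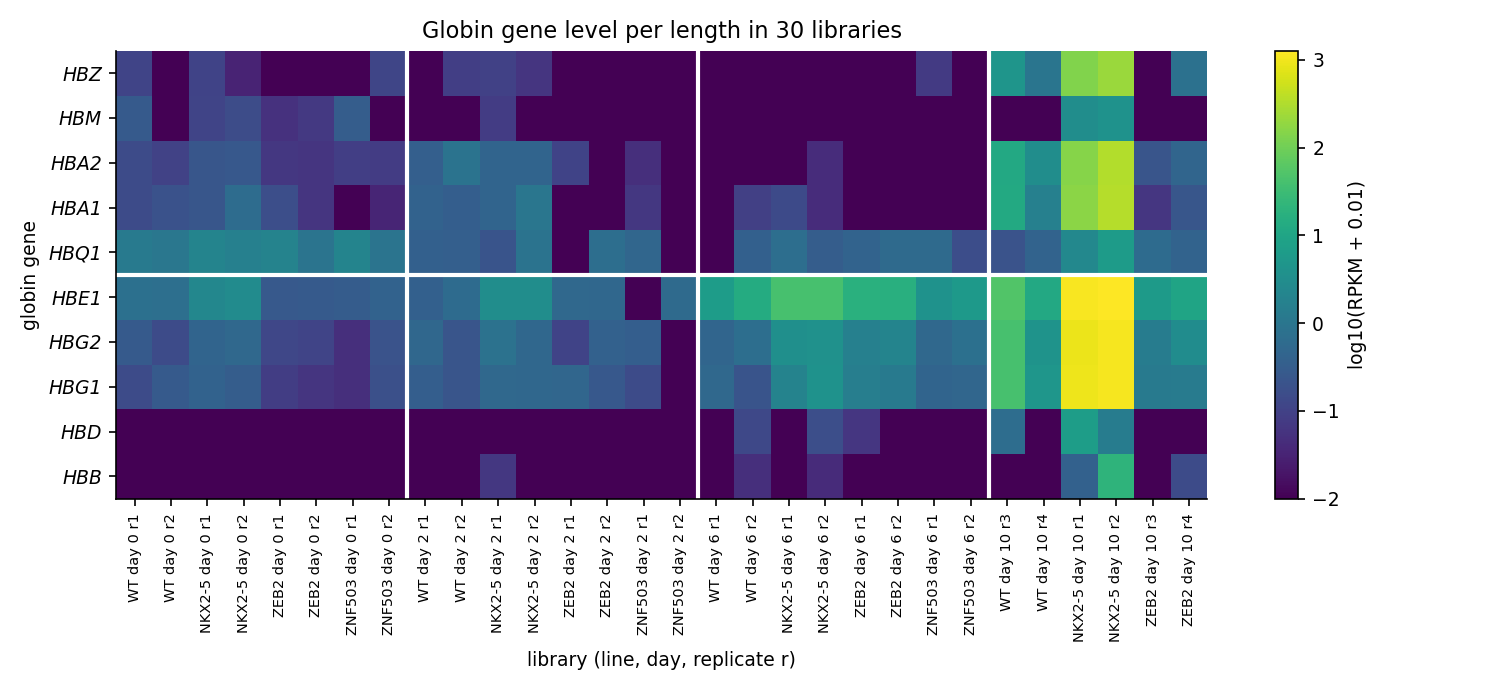
Level of each globin gene, as log10 of CPM per kilobase of transcript (RPKM) plus 0.01, in the 30 libraries ordered by day and line, with the alpha cluster and the beta cluster in chromosomal order. HBE1 and HBQ1 are visible from day 0. Group means of the gamma genes are at most 0.670 RPKM through day 2. At day 6 HBG1 and HBG2 have means of 2.92 and 3.67 RPKM in NKX2-5 shRNA cells and of 0.361 and 0.571 in WT. HBZ, HBA1 and HBA2 are bright in the NKX2-5 shRNA cells of day 10 and fainter in WT.

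The question at day 10 was how each knockdown changed expression relative to WT. In NKX2-5 shRNA cells 8 of the 9 globin genes that could be tested were called higher than in WT, by edgeR's quasi-likelihood test with Benjamini-Hochberg adjustment and the study's thresholds for this day (8-fold, 1% FDR). Of all 17002 genes tested 4.46% were called higher and 2.85% lower. The median log2 fold change of the 9 genes was 5.20, or 5.04 with HBM at its lower bound, and that of all genes 0.028. HBM, HBQ1 and HBD passed the filter on low counts through the NKX2-5 shRNA libraries alone, so they had to differ, and neither the count nor the median is support by itself. HBZ, HBA1, HBA2, HBE1, HBG1 and HBG2 passed it in more than 1 line.

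HBE1, the embryonic beta-like gene, was the most abundant globin gene per kilobase in all 6 libraries. It had 14541 and 16715 counts in the NKX2-5 shRNA libraries (693.7 and 790 CPM), 629 and 70 in WT replicates 3 and 4 (32.4 and 7.53 CPM) and 122 and 141 in ZEB2 shRNA cells (3.77 and 6.02 CPM). Every NKX2-5 shRNA library lay above every WT library, and every WT library above every ZEB2 shRNA library. The group means were 741.8 ± 68.1 CPM (SD, n = 2) in NKX2-5 shRNA, 20.0 ± 17.6 in WT and 4.89 ± 1.59 in ZEB2 shRNA cells. Against WT the log2 fold change in NKX2-5 shRNA cells was 5.20 (SE 0.65, edgeR adjusted p = 0.00118). Per kilobase of transcript (RPKM), HBE1 stood at 1113 and 1268 in the NKX2-5 shRNA libraries and at 52.0 and 12.1 in WT.

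The fetal gamma genes followed closely. HBG1 had 11538 and 13188 counts in the NKX2-5 shRNA libraries, 481 and 26 in WT and 24 and 18 in ZEB2 shRNA cells, while HBG2 had 10793 and 13544, 462 and 23, and 26 and 42 in the same order. The NKX2-5 shRNA libraries did not overlap the others for either gene. ZEB2 shRNA cells lay below WT for HBG1; for HBG2 they lay below WT in CPM (0.80 and 1.79 against 23.8 and 2.47). The log2 fold change against WT in NKX2-5 shRNA cells was 5.37 for HBG1 (SE 0.83, edgeR adjusted p = 0.00249) and 5.415 for HBG2 (SE 0.90, edgeR adjusted p = 0.0033). HBG1 and HBG2 counts were in a ratio of 0.914 to 1.07 in the 5 libraries with at least 100 counts over the pair, and because the transcripts are nearly identical the split between them is uncertain.

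The adult-type genes of the beta cluster were at the bottom of it. HBD had 88 and 18 counts in the NKX2-5 shRNA libraries (4.198 and 0.851 CPM), 8 and 0 in WT and 0 and 0 in ZEB2 shRNA cells. Its log2 fold change against WT was 3.30 (SE 1.19, edgeR adjusted p = 0.064) and did not pass. HBB, the adult beta chain, had 5 and 272 counts in NKX2-5 shRNA replicates 1 and 2 (0.239 and 12.9 CPM), 0 and 0 in WT and 0 and 2 in ZEB2 shRNA cells, and it was not tested because 1 library alone reached the filter. HBB was thus high in the NKX2-5 shRNA library in which HBD was low. HBBP1, the beta-globin pseudogene between HBD and HBG1 (chr11:5263350-5264767), split like HBB, with 20 and 694 counts in the NKX2-5 shRNA libraries and 0 in the other 4.

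HBZ, the embryonic alpha-like gene, had 2262 and 3597 counts in the NKX2-5 shRNA libraries (107.9 and 170 CPM), 70 and 7 in WT (3.61 and 0.753 CPM) and 0 and 15 in ZEB2 shRNA cells. The NKX2-5 shRNA libraries did not overlap the others, and the log2 fold change against WT was 5.86 (SE 0.89, edgeR adjusted p = 0.00226). The alpha genes behaved alike. HBA1 had 1964 and 4096 counts in NKX2-5 shRNA, 139 and 9 in WT and 1 and 3 in ZEB2 shRNA cells; HBA2 had 1816 and 3941, 136 and 17, and 4 and 6. Their log2 fold changes in NKX2-5 shRNA cells were 5.04 for HBA1 (SE 0.77, edgeR adjusted p = 0.00233) and 4.87 for HBA2 (SE 0.63, edgeR adjusted p = 0.00131). HBA1 and HBA2 counts were in a ratio of 1.02 to 1.08 in 3 such libraries, and their split is uncertain as for the gamma genes.

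The minor alpha-like genes were low throughout. HBM, the mu chain gene, had 33 and 42 counts in the NKX2-5 shRNA libraries (1.57 and 1.99 CPM) and 0 in the 4 other day 10 libraries, which makes it at least 7.46-fold higher than in WT (3 counts per library taken as the limit; edgeR adjusted p = 0.0069). HBQ1, the theta chain gene, had 27 and 69 counts in NKX2-5 shRNA, 2 and 2 in WT and 10 and 5 in ZEB2 shRNA cells. Its pooled ratio to WT was 16.35 (95% exact interval of the counts 6.18 to 61.2; edgeR adjusted p = 0.0086).

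These calls depended on which WT library was kept. Without WT replicate 3, the library with more globin reads, 5 genes were called and the log2 fold changes of HBZ, HBA1, HBA2, HBE1, HBG1 and HBG2 were 6.22 to 7.87; HBQ1 then missed 5% FDR. Without WT replicate 4 they were 4.29 to 5.28 and 3 genes were called. At 5% FDR, 7 and 8 of the 9 genes remained higher in these fits, and 23.3% of all genes were higher at 5% FDR in the fit with both.

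ZEB2 shRNA cells at day 10 had fewer globin reads than WT, by less clear margins. By the study's thresholds 0 of 9 genes were called (1.46% of all genes, in either direction); edgeR's exact test called 4 and DESeq2 3, and 6 had an unadjusted p under 0.05. At 5% FDR the quasi-likelihood test gave 4 lower genes, beside 7.68% of all genes. These were HBA1 (pooled ratio of WT to ZEB2 shRNA 71.9, 95% exact interval 27.5 to 267.5, edgeR adjusted p = 0.0152), HBA2 (log2 fold change -4.65, SE 0.82, edgeR adjusted p = 0.0105), HBG1 (-4.23, SE 0.88, edgeR adjusted p = 0.0187) and HBG2 (-3.42, SE 0.90, edgeR adjusted p = 0.0385). Of these 4, HBA1 and HBA2 reached the filter on low counts through NKX2-5 shRNA and WT libraries and no ZEB2 shRNA library. They had to be lower, so the count of 4 is no support by itself. HBE1 had a log2 fold change of -2.07 (SE 0.59, edgeR adjusted p = 0.0501) and HBZ of -3.06 (SE 1.06, edgeR adjusted p = 0.0861). Without WT replicate 3, HBG1 alone stayed lower at 5% FDR and the value for HBG2 was -0.96, and when either ZEB2 shRNA library was left out none of the 4 did.

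Between the knockdown lines themselves, 6 of 9 genes were called higher in NKX2-5 shRNA than in ZEB2 shRNA cells at day 10 (0.753% of all genes) and 9 of 9 at 5% FDR (10.6% of all genes). HBM, HBQ1 and HBD passed the filter through the NKX2-5 shRNA libraries, and HBA1 and HBA2 through these and WT but no ZEB2 shRNA library, so they had to be higher and these counts are no support by themselves. The log2 fold changes were 7.26 for HBE1 (SE 0.72), 9.605 for HBG1 (SE 1.03), 8.84 for HBG2 (SE 1.07), 8.92 for HBZ (SE 1.06) and 9.52 for HBA2 (SE 0.84), all called by edgeR, as was HBA1. Without ZEB2 shRNA replicate 3 or 4 these calls fell to 0 and 1, with 6 genes at 5% FDR in each case.

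**Figure D3:**
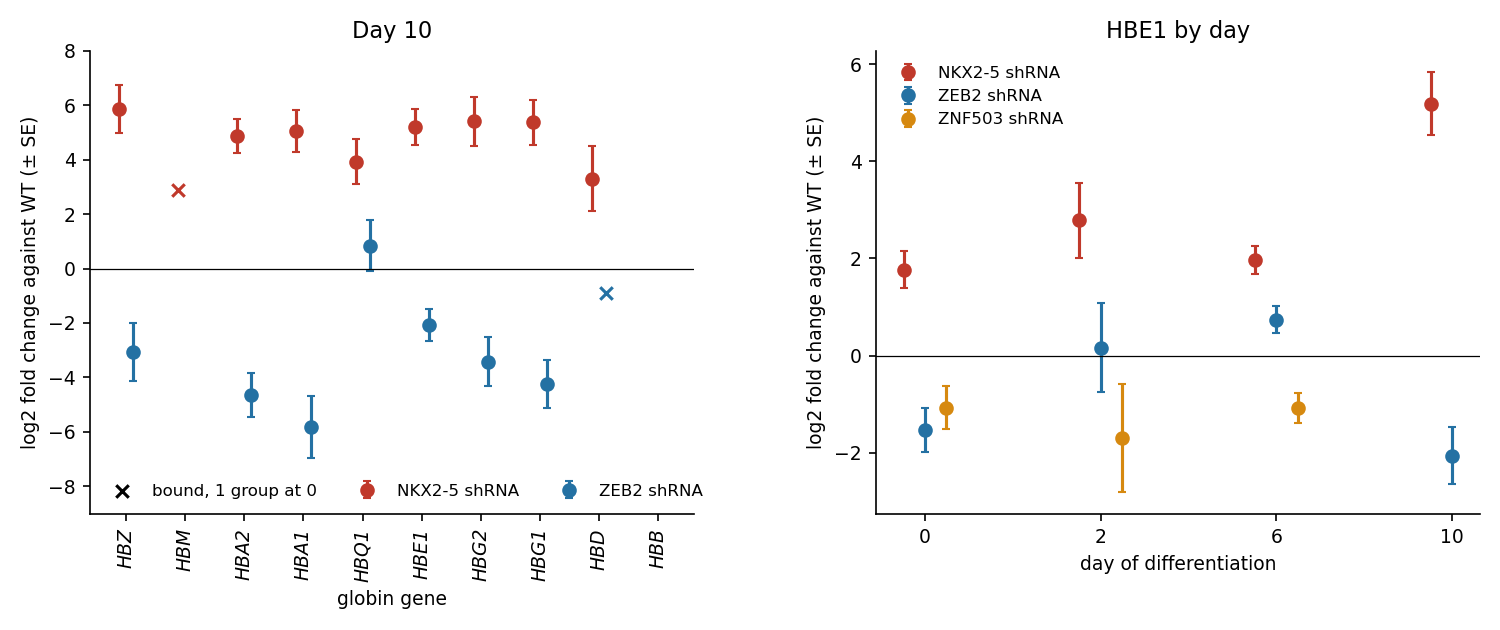
Left, log2 fold change against WT at day 10 for each tested globin gene in NKX2-5 shRNA and ZEB2 shRNA cells (points, bars are SE; crosses are bounds where all libraries of 1 group had 0 counts). Right, log2 fold change of HBE1 against WT at each day for the 3 knockdown lines; NKX2-5 shRNA cells are above 0 at all 4 days, from 1.77 at day 0 to 5.20 at day 10.

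The day 6 cells, at the progenitor stage, had mostly HBE1. It had 691 and 1267 counts in the NKX2-5 shRNA libraries (25.4 CPM in both), 661 and 142 in ZEB2 shRNA (11.01 and 10.5 CPM), 94 and 358 in WT (4.07 and 8.61 CPM) and 48 and 89 in ZNF503 shRNA cells (2.44 and 3.61 CPM). The 4 lines did not overlap. HBG2 and HBG1 followed at 6 to 112 and 5 to 116 counts per library. Of the alpha cluster, HBZ had at most 1 count, HBA1 at most 2, HBA2 at most 1, HBM 0 and HBQ1 0 to 13 in all 8 libraries, and in the beta cluster HBD had at most 5 and HBB at most 1. HBE1, HBG1 and HBG2 could be tested.

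In NKX2-5 shRNA cells at day 6, 1 of the 3 genes was called (1.29% of all genes were called higher) and all 3 were higher at 5% FDR (24.5% of all genes). The called gene was HBG1, which reached the filter through the NKX2-5 and ZEB2 shRNA libraries and in no WT library, so it had to be higher than WT and the call is no support by itself. It was no longer called without NKX2-5 shRNA replicate 2 (2.47, edgeR adjusted p = 0.0197), and 0 genes were called with HBG1 and HBG2 summed. Its log2 fold change was 3.15 (SE 0.58, edgeR adjusted p = 0.0007), HBG2 had 2.61 (SE 0.43, edgeR adjusted p = 0.000293) and HBE1 1.97 (SE 0.28, edgeR adjusted p = 0.000105). In ZEB2 shRNA cells 0 were called (0.462% of all genes in either direction; 3 had an unadjusted p under 0.05, and DESeq2 and the exact test called 0), and HBG1 (2.09, SE 0.62, edgeR adjusted p = 0.0497) and HBG2 (1.58, SE 0.45, edgeR adjusted p = 0.0436) were higher at 5% FDR, beside 5.67% of all genes, whereas HBE1 had 0.74 (SE 0.29, edgeR adjusted p = 0.13). Neither gamma gene passed in ZEB2 shRNA cells when any of the 4 libraries was left out (edgeR adjusted p = 0.0599 to 0.288 for HBG1 and 0.0841 to 0.222 for HBG2), with DESeq2 or in 1 fit of all libraries. HBG1 did not pass with the replicate block either (2.12, edgeR adjusted p = 0.0679). Since HBG1 reached the filter in no WT library, its pass in ZEB2 shRNA cells is no support by itself. In ZNF503 shRNA cells 0 were called (3.91% of all genes; 1 had an unadjusted p under 0.05, and the other tools called 0), and HBE1 was lower at 5% FDR with -1.09 (SE 0.31, edgeR adjusted p = 0.0108), beside 28.5% of all genes. That HBE1 value was -0.44 without WT replicate 2 and -0.85 without ZNF503 shRNA replicate 1. HBG1 at 0.47 and HBG2 at 0.13 did not pass in ZNF503 shRNA cells.

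Before differentiation the globin genes were near the limit of counting. HBE1 had 55 and 99 counts in the NKX2-5 shRNA libraries at day 0 (1.41 and 1.77 CPM), 18 and 17 in WT (0.48 and 0.445 CPM), 14 and 11 in ZEB2 shRNA and 8 and 18 in ZNF503 shRNA cells. The NKX2-5 shRNA libraries lay above the rest already in undifferentiated cells. The log2 fold change was 1.77 (SE 0.38, edgeR adjusted p = 0.00987) and was called at the day 0 thresholds (2-fold, 10% FDR; 2.64% of all genes were called higher). In ZEB2 shRNA cells HBE1 was called lower at -1.54 (SE 0.45, edgeR adjusted p = 0.0799), beside 0.782% of all genes, and leaving out any of its 4 libraries removed the call. In ZNF503 shRNA cells HBE1 had -1.08 (SE 0.44, edgeR adjusted p = 0.155) and 0 genes were called (2.57% of all genes; 1 gene had an unadjusted p under 0.05, and edgeR's exact test called 1). At day 0 HBE1 reached the filter in no ZEB2 shRNA library, so its lower call in that line is no support by itself. At day 2 HBE1 had 113 and 48 counts in NKX2-5 shRNA (2.00 and 1.98 CPM), 7 and 6 in WT, 12 and 13 in ZEB2 shRNA and 0 and 8 in ZNF503 shRNA cells. It was called higher in NKX2-5 shRNA cells with 2.79 (SE 0.78, edgeR adjusted p = 0.0165) at 4-fold and 10% FDR, beside 0.484% of all genes. The call was lost with DESeq2 (2.73, adjusted p = 0.204) and without WT replicate 1 (2.39, edgeR adjusted p = 0.133). In the other knockdowns 0 of 3 genes (HBQ1, HBE1 and HBG2) were called at day 2 by edgeR (0.133% of all genes in ZEB2 shRNA, 2.80% in ZNF503 shRNA). There were 0 at an unadjusted p under 0.05 and 0 called by the other tools. HBA1 and HBA2 were not tested singly. HBA1 had 7 and 3 counts in WT, 0 and 0 in ZEB2 shRNA and 3 and 0 in ZNF503 shRNA cells. HBA2 had 6 and 8, 2 and 0, and 2 and 0 in the same order. With near-identical pairs summed, 2 members were called in each of these 2 lines.

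HBQ1 took another course early on. It was the highest gene of the alpha cluster per kilobase in all 8 day 0 libraries, with 21 to 91 counts (median 38). Its median was 6 counts at day 2, 7 at day 6 and 7.5 at day 10, in libraries of unlike depth. From day 0 to day 10 its mean went from 0.987 to 2.275 CPM in NKX2-5 shRNA cells. It went from 0.595 to 0.159 CPM in WT and from 0.751 to 0.261 CPM in ZEB2 shRNA cells. From day 0 to day 6 its log2 fold change was -2.28 in WT (SE 0.79, edgeR adjusted p = 0.0294) and -1.99 in ZNF503 shRNA cells (SE 0.84, edgeR adjusted p = 0.0483), both lower at 5% FDR, beside 29.6% and 34.7% of all genes. It was -1.91 in NKX2-5 shRNA (edgeR adjusted p = 0.0738) and -1.71 in ZEB2 shRNA cells (edgeR adjusted p = 0.073), where 26.9% and 34.0% of all genes were lower at 5% FDR. The values of the 4 lines were close, and whether they differ was not tested. In WT, HBQ1 reached the filter in the day 0 libraries alone, so its fall there is no support by itself. The WT value no longer passed with DESeq2, in 1 fit of all libraries or in 3 of 4 fits with 1 library left out, and the ZNF503 shRNA value with other scalings, DESeq2, 1 fit of all libraries or in 2 of 4 such fits. HBB had 0 to 2 counts and HBD 0 counts in every library of days 0 and 2.

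Over time HBE1 rose between day 0 and day 6 in each of the 4 lines. Its log2 fold change was 3.81 in WT (SE 0.68), 4.04 in NKX2-5 shRNA (SE 0.16), 6.00 in ZEB2 shRNA (SE 0.34) and 3.80 in ZNF503 shRNA cells (SE 0.72), all called by edgeR at 8-fold and 1% FDR, beside 6.29%, 5.57%, 5.95% and 6.03% of all genes called higher; with DESeq2 the ZNF503 shRNA value did not pass (3.87, adjusted p = 0.0662). HBG1 was also called in NKX2-5 shRNA (3.18, SE 0.40) and ZEB2 shRNA cells (4.30, SE 0.63), and HBG2 in ZEB2 shRNA cells (3.93, SE 0.66). In these lines HBG1 and HBG2 reached the filter in no day 0 library, nor did HBE1 in ZEB2 and ZNF503 shRNA cells. They passed it through later days alone, so these calls are no support by themselves. The ZEB2 line started lowest for HBE1, at 0.161 ± 0.0067 CPM (SD, n = 2) at day 0, and was second highest at day 6.

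From day 6 to day 10 the lines parted. In NKX2-5 shRNA cells 7 of 9 genes were called higher (4.78% of all genes): HBE1 rose by 4.82 on the log2 scale (SE 0.16), HBG1 by 8.31 (SE 0.34) and HBG2 by 8.01 (SE 0.24), each called by edgeR. HBZ went from 0 counts in both libraries to 2262 and 3597, at least 1631-fold higher, and HBM at least 20.9-fold. HBA1, with 3 counts in all at day 6, had a pooled ratio of 3698 (95% exact interval 1265 to 1.794e+04). HBA2 went from 1 count in all to 1816 and 3941. HBZ, HBA2 and HBM reached the filter on low counts through the day 10 libraries alone and so had to rise, and the count of 7 is no support by itself. In WT 5 of 7 genes were called higher (2.73% of all genes): HBG1 with 6.21 (SE 0.96), HBG2 with 5.29 (SE 0.90), HBZ at least 21.6-fold, HBA2 at least 43.7-fold and HBA1 with a pooled ratio of 166.6 (95% exact interval 45.3 to 1389). Here HBZ, HBA1 and HBG1 passed the filter through day 10 alone, so that this count is no support either. HBE1 in WT had 1.70 (SE 0.54, edgeR adjusted p = 0.0208), 0.26 without WT replicate 3 of day 10 and 1.27 without WT replicate 1 of day 6 (edgeR adjusted p = 0.624 and 0.141). The WT replicate 3 library carried much of the WT rise, since 3 genes were called without it, and 2 without WT replicate 2 of day 6. In ZEB2 shRNA cells 0 of 4 genes were called by edgeR (4.10% of all genes in either direction; 1 had an unadjusted p under 0.05). That gene was HBE1, which was lower at 5% FDR at -1.16 (SE 0.26, edgeR adjusted p = 0.0014; 31.0% of all genes were lower at 5% FDR), while HBG1 at -0.15 and HBG2 at 0.27 did not pass.

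The difference between lines in this change was tested by an interaction term. The HBE1 change from day 6 to day 10 was larger in NKX2-5 shRNA than in WT cells by 3.22 on the log2 scale (SE 0.71, edgeR adjusted p = 0.00898), 1 of 9 genes called (2.28% of all genes). It was 2.53 to 4.63 with 1 library left out, and without WT replicate 2 of day 6 it missed 5% FDR (2.58, edgeR adjusted p = 0.0531). For HBG2 the difference was 2.80 (SE 1.27, edgeR adjusted p = 0.132) and for HBG1 2.15 (SE 1.55, edgeR adjusted p = 0.337), neither of which passed, as for HBA1, HBQ1 and HBD, and no usable estimate was had for HBZ, HBA2 or HBM, with 0 counts at day 6 in a line. ZEB2 shRNA cells had a lower change than WT at 5% FDR for HBE1 (-2.85, SE 0.74, edgeR adjusted p = 0.0467), HBG1 (-6.41, SE 1.38, edgeR adjusted p = 0.0268) and HBG2 (-5.03, SE 1.25, edgeR adjusted p = 0.0423), beside 2.48% of all genes. These passes were lost with most single libraries left out, in 7 of 8 such fits for HBE1, 6 for HBG1 and 7 for HBG2, with edgeR adjusted p up to 0.186, 0.197 and 0.18. Without WT replicate 3 of day 10 the values were -1.35 for HBE1, -4.01 for HBG1 and -2.50 for HBG2. None of the 3 was called at 8-fold and 1% FDR (0.355% of all genes in either direction).

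From day 6 to day 10 the composition of the beta cluster moved from epsilon toward gamma. Before day 6, only NKX2-5 shRNA replicate 2 of day 0 and replicate 1 of day 2 had at least 100 counts over the cluster. HBE1 made up 77.5% and 69.4% of its RPKM there, and HBG1 with HBG2 22.5% and 29.4%. These HBE1 shares lay below the 88.3% and 83.6% of the same line at day 6, so no steady fall from day 0 was seen. Each earlier share rests on 1 library, and the difference was not tested. At day 6 HBE1 made up 82.3% to 92.9% of the cluster's RPKM in the 7 libraries with at least 100 counts over it, and NKX2-5 shRNA and WT cells overlapped. At day 10 it made up 37.9% and 36.8% in NKX2-5 shRNA cells, and HBG1 with HBG2 61.85% and 62.55%. WT replicate 3 was nearly the same, with 38.4% HBE1 and 61.1% gamma, although its HBE1 level was 32.4 CPM against 693.7 and 790 CPM. WT replicate 4 had 57.35% HBE1 (count share 58.8%, Wilson 95% interval 49.8 to 67.3) and 42.65% gamma, and ZEB2 shRNA cells 69.7% and 68.2% HBE1. ZEB2 shRNA cells thus kept a larger epsilon share at day 10 than NKX2-5 shRNA cells, with count shares of 70.9% (Wilson 95% interval 63.8 to 77.2) and 69.5% (62.8 to 75.4) against 39.3% (38.8 to 39.8) and 38.2% (37.8 to 38.7). With 2 libraries a line an exact permutation test of these shares cannot go below p = 0.333. HBD and HBB together took under 1% of the cluster in NKX2-5 shRNA cells, with HBD at 0.231% and 0.0398% and HBB at 0.0129% and 0.594%.

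At day 10 the alpha pair exceeded the embryonic gene of its cluster in the libraries with at least 100 counts over the cluster. In ZEB2 shRNA replicate 4, with fewer, HBZ stood at 0.802 RPKM (15 counts), HBA1 at 0.222 (3 counts) and HBA2 at 0.444 (6 counts). In the NKX2-5 shRNA libraries of day 10, HBZ made up 29.8% and 24.15% of the cluster's RPKM and HBA1 with HBA2 69.0% and 74.7%. In WT replicate 3 HBZ made up 15.4% (count share 20.2%, Wilson 95% interval 16.3 to 24.7) and the alpha pair 83.9%. The 4th library with at least 100 counts was ZEB2 shRNA replicate 1 of day 0, where HBQ1 made up 88.2% (count share 87.5%, Wilson 95% interval 79.8 to 92.6). At days 6 and 10 the alpha-like genes lay below the beta-like genes in every library. They held 13.4% and 20.4% of all globin RPKM in the NKX2-5 shRNA libraries of day 10, 17.8% and 22.75% in WT and 8.945% and 11.7% in ZEB2 shRNA cells, against 0% to 2.92% at day 6 in the libraries with at least 100 globin counts. At days 0 and 2 levels were low and either set could be the higher, as in ZNF503 shRNA replicate 1 of day 0 (alpha 2.39 and beta 0.365 RPKM) and NKX2-5 shRNA replicate 1 of day 2 (alpha 1.22 and beta 4.63 RPKM).

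**Figure D4:**
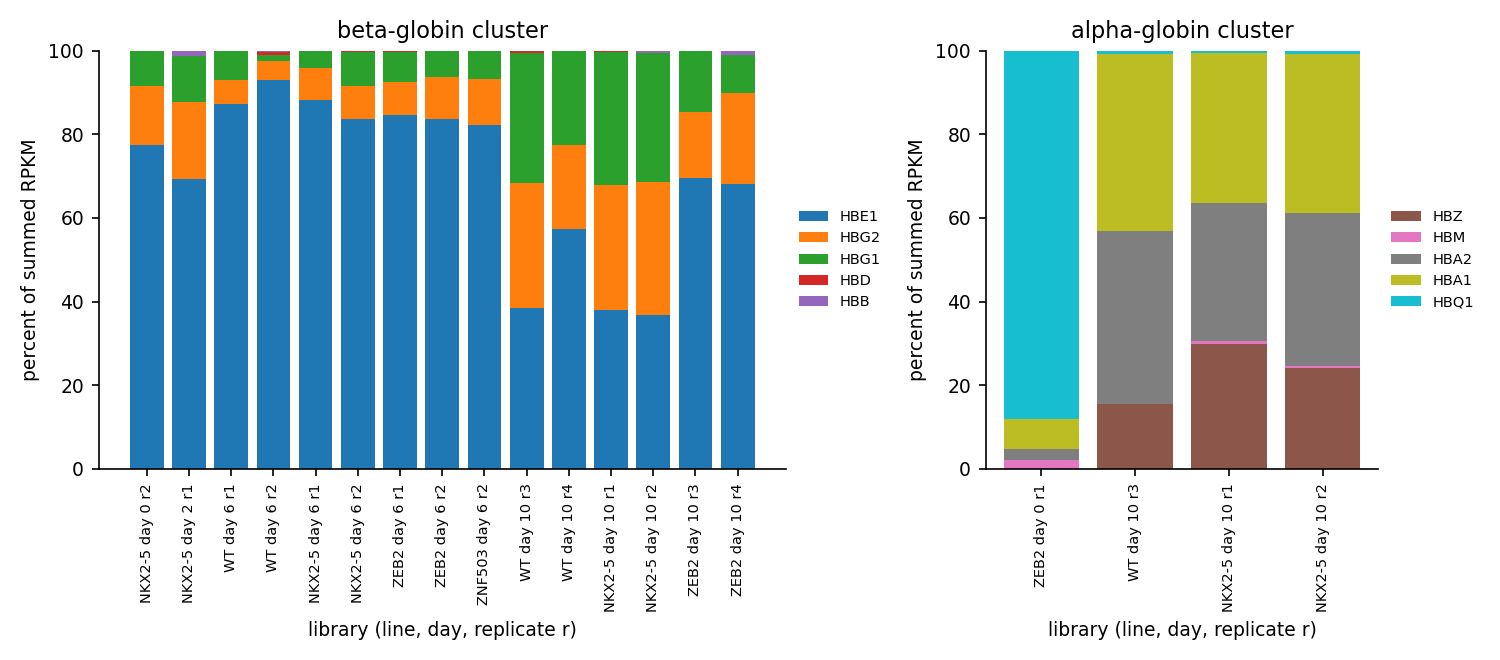
Percent of summed RPKM taken by each gene of the beta-globin cluster (15 libraries) and of the alpha-globin cluster (4 libraries), for libraries with at least 100 counts over the cluster; bars stack to 100%. HBE1 fills 82.3% to 92.9% of the beta cluster at day 6 and 36.8% to 69.7% at day 10.

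Across the 30 libraries the members fell into sets by level. On log2(CPM + 1), Pearson's r was 0.997 for HBG1 with HBG2 and for HBA1 with HBA2, 0.992 for HBZ with HBA1, 0.919 for HBE1 with HBG2, 0.838 for HBE1 with HBZ, 0.422 for HBQ1 with HBE1 and 0.381 for HBD with HBB. These are descriptions over libraries that share line, day and depth. Among 18469 other genes, the 10 whose levels ran most like the summed globin level over the 30 libraries were CAVIN2 (r = 0.958), ART4 (0.946), TPD52L1 (0.939), SLC3A1 (0.932), COLEC10 (0.932), LYZ (0.926), BTK (0.912), CEBPD (0.912), NNMT (0.910) and GLYAT (0.907). ART4 carries the Dombrock blood group antigens, BTK is a kinase of blood cells and LYZ is lysozyme, whereas SLC3A1, an amino acid transporter subunit, COLEC10, a collectin, and the enzymes NNMT and GLYAT are best known from liver or kidney.

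The neighbors of the clusters did not all move with them. Of 7 flanking genes of the alpha cluster, 0 were called in NKX2-5 shRNA cells at day 10 and 2 were higher at 5% FDR (23.3% of all genes), RHBDF1 (2.24) and MPG (0.80); their median was 0.17. NPRL3, whose introns hold the alpha-globin enhancers, had 0.64 (SE 0.29, edgeR adjusted p = 0.111). Of the 5 tested genes that flank the beta cluster 0 were called and TRIM6 (1.26) was higher at 5% FDR. The olfactory receptor genes OR51B5, OR51B4 and OR51B2, upstream of HBE1, behaved differently by day. At day 6 they had log2 fold changes of 1.96, 2.35 and 2.24 in NKX2-5 shRNA cells (edgeR adjusted p = 7.3e-05, 0.000208 and 7.12e-05), and at day 10 0.24, -0.45 and -0.98, which did not pass. OR51B5 had 456 and 879 counts in the NKX2-5 shRNA libraries of day 6 and 67 and 237 in WT, then 37 and 14 against 21 and 9 at day 10. The counted transcripts of HBE1 and HBG2 do not overlap OR51B5 (chr11:5324674-5526882, GRCh37), although longer GENCODE isoforms of both genes reach over it on the same strand.

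Genes of the red cell program were compared from lists in NKX2-5 shRNA cells at day 10. Of 13 erythroid transcription factors 7 were called higher, 9 were higher at 5% FDR and 0 were lower (4.46% of all genes called higher, 23.3% higher at 5% FDR), with a median log2 fold change of 3.42 against 0.028 for all genes. GATA1, the master factor of red cells, had 440 and 193 counts in NKX2-5 shRNA, 6 and 2 in WT and 0 and 0 in ZEB2 shRNA cells (5.76, SE 0.67, edgeR adjusted p = 0.00134), the largest change of the list. It reached the filter on low counts through the NKX2-5 shRNA libraries alone and so had to be higher. Neither its call nor the count of 7 is support by itself, and the rest of the list was not examined for this. KLF1, an activator of adult beta-globin, had 186 and 167 counts against 14 and 8 in WT and 26 and 8 in ZEB2 shRNA cells (3.42, SE 0.52, edgeR adjusted p = 0.00234). TAL1, a GATA1 partner, had 4.21 (SE 0.38, edgeR adjusted p = 0.000395), and LDB1 had the lowest value, -0.43 (edgeR adjusted p = 0.214). In ZEB2 shRNA cells 1 factor was called against WT, RUNX1, needed for the first blood stem cells, at 3.67 (SE 0.52, edgeR adjusted p = 0.00533).

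Of 11 regulators of globin switching, 1 was called higher (KLF1, also in the list above), 5 were higher at 5% FDR and 0 lower, beside 4.46% and 23.3% of all genes called higher and higher at 5% FDR; the median was 0.78. BCL11A, which represses the gamma genes, had -0.50 (SE 0.29, edgeR adjusted p = 0.199), and LIN28B, an RNA-binding protein of the fetal program, had 0.36 (SE 0.19, edgeR adjusted p = 0.16). The largest value was that of MYB, 4.02 (edgeR adjusted p = 0.0208), which the list of factors also holds, and the lowest that of BCL11A. At day 6, before the gamma genes rose most, BCL11A was higher in NKX2-5 shRNA cells (1.76, SE 0.26, edgeR adjusted p = 0.000126) and LIN28B lower (-0.80, SE 0.12, edgeR adjusted p = 0.000136), both at 5% FDR.

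Of 16 genes of heme synthesis and iron uptake 2 were called higher, 5 were higher at 5% FDR and 0 lower, with a median of 0.43. The 5 of 16 lay near the 23.3% of all genes higher at 5% FDR. ALAS2, the erythroid enzyme of the first step of heme synthesis, had 962 and 1161 counts in NKX2-5 shRNA, 30 and 8 in WT and 8 and 7 in ZEB2 shRNA cells (5.32, SE 0.35, edgeR adjusted p = 0.000169). The other called gene was HMOX1 (3.64, SE 0.35, edgeR adjusted p = 0.000483), which breaks heme down and does not make it. FECH, the last enzyme of the pathway, had the lowest value, -0.41 (edgeR adjusted p = 0.159). ALAD, UROS, UROD, CPOX and PPOX, enzymes of the pathway that all cells use, had -0.40 to 0.70 and did not pass.

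Of 22 red cell membrane and blood group genes, 6 were called higher and 1 lower, and 13 and 2 at 5% FDR, with a median of 1.32; of all genes 4.46% were called higher and 2.85% lower, and 23.3% and 20.6% were so at 5% FDR. RHAG, the Rh-associated glycoprotein, had the largest change (6.475, edgeR adjusted p = 0.00198). SLC4A1, the band 3 anion exchanger, had 172 and 269 counts against 6 and 2 in WT and 1 and 3 in ZEB2 shRNA cells (5.23, edgeR adjusted p = 0.000878). SLC4A1 too reached the filter through the NKX2-5 shRNA libraries alone and had to be higher, so the count of 6 is no support by itself. The rest of this list, RHAG included, was not examined for this. The called lower gene was KCNH2, a potassium channel best known from heart muscle (-4.01, edgeR adjusted p = 0.00108). AHSP, the chaperone that stabilizes free alpha-globin in red cells, was not seen at day 10. It had 8 to 68 counts in every day 0 library, 0 to 25 at day 2 and 0 to 2 at day 6, and 0 counts in all 6 day 10 libraries, where the limit was 0.134 and 0.149 CPM in the NKX2-5 shRNA libraries. Myoglobin (MB), the globin of muscle, fell in NKX2-5 shRNA cells at day 10 by 7.67 on the log2 scale (SE 0.86, edgeR adjusted p = 0.000795), with 0 and 7 counts against 700 and 315 in WT, and CYGB, a widely expressed globin, had 1.80 (edgeR adjusted p = 0.0839).

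**Figure D5:**
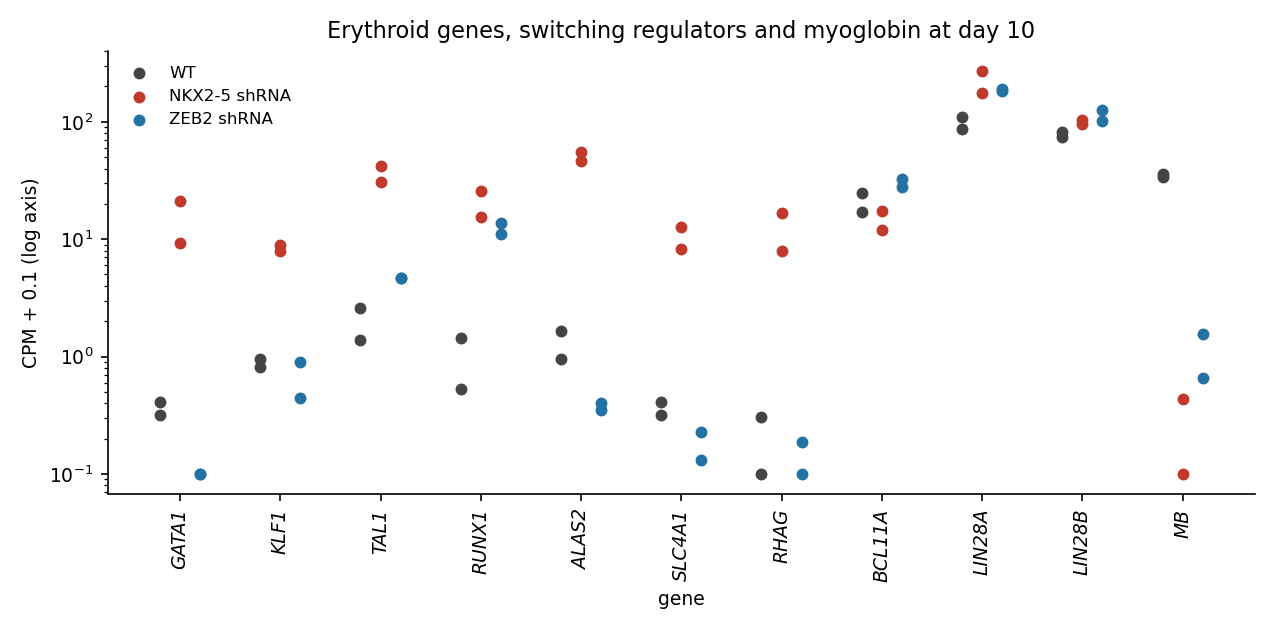
CPM plus 0.1 (log axis) of 11 genes tied to hemoglobin in the 6 day 10 libraries, by line. GATA1, KLF1, TAL1, ALAS2 and SLC4A1 are higher in both NKX2-5 shRNA libraries than in the other 4, BCL11A overlaps between NKX2-5 shRNA and WT cells, LIN28B spans 73.7 to 126.9 CPM over the 6 libraries, and MB is highest in WT.

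At day 6 the same lists were read in NKX2-5 shRNA cells, where HBE1, HBG1 and HBG2 were higher. Of 12 tested erythroid factors 0 were called, 1 was higher at 5% FDR and 5 were lower (24.5% and 24.7% of all genes). GATA1 had 0 and 4 counts and was not tested, KLF1 was lower (-1.76, SE 0.41, edgeR adjusted p = 0.00342), and RUNX1 was the higher one (2.38, SE 0.34, edgeR adjusted p = 0.000107). Of the 16 heme and iron genes 1 was called higher and 0 lower, and 7 were higher and 5 lower at 5% FDR. ALAS2 was among the lower ones (-2.61, SE 0.52, edgeR adjusted p = 0.00127), with 4 and 14 counts against 39 and 48 in WT. Of the 11 switching regulators 0 were called, and 4 were higher and 4 lower at 5% FDR. Of 15 tested membrane and blood group genes 0 were called higher and 2 lower (1.29% and 3.42% of all genes), and 4 were higher and 6 lower at 5% FDR.

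Markers of other cell types also differed between lines at day 10, not all in the order of the globins. In NKX2-5 shRNA cells 4.46% of all genes were called higher than in WT and 2.85% lower, and 20.6% were lower at 5% FDR. These shares stand beside each count below. Which of these markers reached the filter on low counts through the NKX2-5 shRNA libraries alone was not examined. The counts of markers called higher are therefore no support by themselves. Of 14 megakaryocyte and platelet markers 9 were called higher and 0 lower. They summed to 738.6 to 742.1 CPM against 244.5 to 318.3 in WT and 92.7 to 135.5 in ZEB2 shRNA cells. Of the 12 myeloid and macrophage markers 5 could be tested and 3 were called higher. Their summed level was 39.3 to 63.4 CPM in NKX2-5 shRNA, 4.85 to 4.95 in WT and 13.0 to 13.8 in ZEB2 shRNA cells. PTPRC, MPO, C1QA and C1QB had 0 counts in the NKX2-5 shRNA libraries. Of 10 endothelial markers 4 were called higher and 0 lower, and KDR was lower at 5% FDR (-2.40), while the summed level was 229.6 to 357.3 CPM against 377.5 to 473.8 in WT. Hepatic and yolk sac endoderm markers reached 4.546e+04 to 5.646e+04 CPM in NKX2-5 shRNA, 1.22e+04 to 1.428e+04 in ZEB2 shRNA and 2316 to 6121 in WT cells, with 10 of 14 called higher, and all 10 cardiomyocyte markers were called lower. AFP, the yolk sac and fetal liver serum protein, had 57006 counts in WT replicate 3 and 11180 in replicate 4, so the WT library with more globin reads also had more AFP (2938 against 1202 CPM). The part of these cell types in the globin levels was not tested.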

How the data were processed

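Total RNA of H1 ESC lines was sequenced as stranded paired-end libraries, mapped by the authors to hg19 (GRCh37) with TopHat2 2.0.14 (Bowtie2 2.2.1.0, SAMtools 0.1.19.0), with a single best hit kept per read, and counted with RSeQC; the strand setting of the counting is not given in the sources used here. The deposited values are raw counts per RefSeq accession in 34 libraries. A read that matches HBA1 and HBA2, or HBG1 and HBG2, equally well was placed once, which splits such pairs by chance. In 4 day 10 columns (replicates 1 and 2 of WT and ZEB2 shRNA cells) the values do not follow the accessions: the median rank correlation with the other replicates over blocks of rows was 0.0079 to 0.0131, against 0.964 to 0.996 elsewhere. They were not used. Accessions were matched to symbols through a RefSeq gene table (GRCh38.p14, names only), which covered 96.8% of them. For each symbol only the accession with the largest total count was kept, and library totals are over the kept rows. GRCh37 coordinates came from GENCODE.

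Comparisons used edgeR 4.0.16 (R 4.3.3) with TMM scaling, filterByExpr, the quasi-likelihood test and p-values adjusted by Benjamini and Hochberg across every gene in the fit. Lines were compared within a day in 1 fit of all groups of that day, and days within a line. The study's thresholds defined a call, that of the later day for changes over time, and calls at 5% FDR with no fold threshold were given beside them. The procedure was tested on simulated data. CPM and RPKM are TMM-scaled over 30 libraries. DESeq2 1.42.0, edgeR's exact test, other scalings, no filter, 1 fit of all libraries, summed pairs, a replicate block and leaving out each library were the alternatives.

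The members and gene lists were chosen with earlier results of these data known. Named by rule were the 10 members, the targeted genes, the key genes of the erythroid, switching, heme, chaperone and membrane lists (GATA1, KLF1, TAL1, BCL11A, LIN28B, ALAS2, AHSP, SLC4A1), those of largest and smallest change in NKX2-5 shRNA cells at day 10 in each of these lists, and the 10 genes most like the summed globins. Other genes were named after their values were seen. Some genes of these lists are not reported here.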

Additional observations from a re-analysis of the deposited data

Results flagged for a closer look

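The change between day 6 and day 10 differed between lines for 3 globin genes, by edgeR's interaction test. HBE1 changed by 3.22 (log2 scale, SE 0.71, edgeR adjusted p = 0.00898) more in NKX2-5 shRNA than in WT cells, and both NKX2-5 shRNA libraries of day 10 lay above both of WT. With 1 library left out this difference was 2.526 to 4.635. In ZEB2 shRNA against WT cells the difference was -2.85 for HBE1 (SE 0.74, adjusted p = 0.0467), -6.41 for HBG1 (SE 1.38, adjusted p = 0.0268) and -5.025 for HBG2 (SE 1.25, adjusted p = 0.0423). The ZEB2 shRNA passes at 5% FDR were lost in 7 of 8 fits with 1 library left out for HBE1, 6 for HBG1 and 7 for HBG2, and without WT replicate 3 of day 10 the values were -1.35, -4.01 and -2.50. Both differences use the same WT libraries. Groups of 2 libraries were not screened for single distant values.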

How the results depend on the processing

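The sign of each passing member fold change was kept under every alternative run; 677 values stayed on the same side of the threshold and 86 no longer passed, 67 of these with 1 library left out. The larger changes in the number of members called, among them any to or from 0, were as follows. Small changes between counts above 0 are not listed. In NKX2-5 shRNA against WT it went from 1 to 0 at day 0 in 1 fit of all libraries, from 1 to 0 at day 2 with DESeq2 and from 1 to 0 at day 6 with near-identical pairs summed. In ZEB2 shRNA against WT it went from 1 to 0 at day 0 (1 fit of all libraries, DESeq2, replicate block), from 0 to 2 at day 2 (pairs summed) and, at day 10, from 0 to 3 without a filter, to 5 in 1 fit of all libraries, to 3 with DESeq2, to 4 with the exact test and to 3 with the replicate block. In ZNF503 shRNA against WT it went from 0 to 1 at day 0 (exact test) and, at day 2, to 1 without a filter, to 2 with pairs summed and to 1 in 1 fit of all libraries; from day 0 to day 6 in that line it went from 1 to 0 with DESeq2. The ZEB2 shRNA interaction went from 0 to 2 in 1 fit of all libraries and to 2 with DESeq2. In each case the cause was not tested.

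With 1 library left out at a time, members called ranged from 3 to 9 for NKX2-5 shRNA against WT at day 10, 0 to 9 for NKX2-5 against ZEB2 shRNA, 2 to 5 for WT and 6 to 9 for NKX2-5 shRNA from day 6 to day 10, 0 to 1 for ZEB2 shRNA from day 6 to day 10, 1 to 3 for NKX2-5 shRNA from day 0 to day 6, 0 to 1 for NKX2-5 shRNA at days 2 and 6, 0 to 2 for ZNF503 shRNA at day 2, 0 to 0 for ZEB2 shRNA at day 0, 0 to 3 for the NKX2-5 shRNA interaction and 0 to 2 for that of ZEB2 shRNA. A lone library was then assumed to vary like the other groups.

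Same-numbered deviations correlated over 0.1 in 9 of 79 group pairs (median -0.0074), most of which join different days. Within a day the correlations were -0.282 to 0.0546 at day 0, 0.0105 to 0.395 at day 2 and -0.148 to 0.0875 at day 6. The replicate numbers may thus pair the libraries of day 2, and no general pairing was seen. The replicate block otherwise changed 1 member fold, HBG1 in ZEB2 shRNA cells at day 6 (2.12, DESeq2 2.03), which no longer passed. No paired analysis was possible because replicate numbers differ for NKX2-5 shRNA against the other day 10 groups, for WT and ZEB2 shRNA from day 6 to day 10, and for the interactions. Library totals in place of TMM moved the median of all genes by -0.129 (NKX2-5 shRNA, day 2), 0.182 (ZEB2 shRNA, day 10) and -0.147 (NKX2-5 against ZEB2 shRNA), and gave summed globin levels of 3.28 CPM in NKX2-5 shRNA cells at day 0 and 1.58 CPM in WT at day 2. On raw counts, not per length, HBE1 took 84.96%, 38.78% and 70.19% of its cluster in ZEB2 shRNA at day 6, NKX2-5 shRNA at day 10 and ZEB2 shRNA at day 10, and HBZ 33.85% in NKX2-5 shRNA at day 10. Depth limited HBM, HBD, HBB and, before day 10, HBZ, HBA1 and HBA2, whose counts mostly lay under 10.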
